A study of Mus musculus with 2 samples.

Results

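The immediate early and heat shock genes described here are Fos, Fosb, Jun, Junb, Atf3, Egr1, Klf2, Hspa1a, Hspa1b and Dnajb1, which were taken by symbol as 10 of the 27998 genes in the expression table of each library. Both libraries held droplet-based single-cell transcriptomes of F4/80+CD11b+ cells sorted from the alveolar bone of male C57/B6 J mice, 8 weeks of age. In the OTM library the mice had undergone orthodontic tooth movement, in which a nickel-titanium coil spring pulled the left first molar toward the maxillary incisors for 7 days, and in the control library no force had been applied. The study divided 20 mice between the groups, but the number pooled in each library was not given in the sources used here, so that each condition was 1 library and no p-value could be computed. All bone was digested with type I collagenase for 60 min at 37 °C before the sort, and no undigested sample was analysed here.

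The control library kept 2444 cells with 10728381 unique molecular identifiers (UMIs, each counting 1 captured transcript) and a median of 3675.5 UMIs per cell. The OTM library kept 1255 cells with 7787159 UMIs and a median of 6053. The deposited labels call the cells alveolar macrophages, but their markers went against that name. Neutrophil-like cells made up 37.5% of the control cells (917) and 33.1% of the OTM cells (415), and S100a8, a calcium-binding protein of neutrophils and monocytes, alone reached 59081 and 36915 UMIs per 1000000 (CPM). Monocyte-macrophage-like cells numbered 1310 (53.6%) in the control and 795 (63.4%) in OTM, and only 53 control cells formed a C1q macrophage-like cluster. Among the kept cells, summed neutrophil markers were lower in OTM (76437 CPM) than in the control (125404 CPM), and summed monocyte-macrophage markers were higher (7640 against 6281 CPM). Both directions turned over all deposited barcodes, where neutrophil markers were at 184355 CPM in the control and 207634 CPM in OTM and monocyte-macrophage markers at 5044 and 4910 CPM. The cell filter had removed 419 of 2863 control and 803 of 2058 OTM barcodes, which were rich in neutrophil markers (346832 and 324883 CPM). These shifts moved with every comparison over all cells, so that each member is given below within cell classes as well, and their part in those comparisons was not tested further. The 2 tables shared 6 cell barcodes.

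Immediate early genes are switched on within minutes of a stimulus without new protein synthesis. Fos, Fosb, Jun and Junb encode subunits of the AP-1 transcription factor, Atf3 encodes a related stress-induced leucine zipper factor, and Egr1 encodes a zinc finger factor induced through growth factor and MAP kinase signals. Klf2, a Krüppel-like factor known for quiescence and shear response, is also quickly induced in handled cells. Hspa1a and Hspa1b encode the inducible Hsp70 chaperone, Dnajb1 encodes its Hsp40 co-chaperone, and all 3 are classical targets of heat shock factor 1. Warm enzymatic digestion of tissue is known to raise many of these transcripts in the cells it releases.

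The promoters of the 2 inducible Hsp70 genes and of 2 immediate early genes are shown because Hspa1a, Jun and Fos recur together in the per-cell results below. Each line is the 150 bases that end 1 base before the annotated start, 5′ to 3′ on the gene's strand, from RefSeq on GRCm38.p6. Capitals mark the heat shock element core (GAANNTTC or TTCNNGAA) in Hspa1a, Hspa1b and Jun, and a TATA box (TATAAA) in Fos.
Hspa1a: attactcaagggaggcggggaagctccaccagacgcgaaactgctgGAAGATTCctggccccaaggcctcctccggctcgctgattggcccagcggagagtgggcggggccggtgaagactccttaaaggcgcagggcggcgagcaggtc
Hspa1b: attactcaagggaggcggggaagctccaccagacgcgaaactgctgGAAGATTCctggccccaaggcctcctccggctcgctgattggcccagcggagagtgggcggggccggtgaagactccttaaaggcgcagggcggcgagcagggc
Jun: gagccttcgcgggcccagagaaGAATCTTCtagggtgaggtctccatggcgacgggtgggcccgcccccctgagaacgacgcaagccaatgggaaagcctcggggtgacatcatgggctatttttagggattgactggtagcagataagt
Fos: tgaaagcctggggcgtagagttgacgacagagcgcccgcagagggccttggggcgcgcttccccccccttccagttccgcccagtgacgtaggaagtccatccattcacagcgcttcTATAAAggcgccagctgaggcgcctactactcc
The stretches lie at chr17:34972157-34972306 (Hspa1a, minus strand), chr17:34959239-34959388 (Hspa1b, minus strand), chr4:95052223-95052372 (Jun, minus strand) and chr12:85473740-85473889 (Fos, plus strand). The Hspa1a and Hspa1b stretches were identical at 149 of 150 positions, and their 250 upstream bases at 247. The heat shock element core lay 104 to 97 bases before the start in both Hsp70 genes and 128 to 121 bases before it in Jun. Searched on both strands of the 250 bases upstream, it was found in 12.8% of all 32851 RefSeq windows, and the TATA box in 12.4%. Windows of 9 members were searched, 2 of them for Dnajb1, and no window of Egr1 was analysed here. The heat shock element core was found in 3 of the 10 member windows, those of Hspa1a, Hspa1b and Jun. Neither window of Dnajb1 held it. Egr sites (GCGGGGGCG or GCGTGGGCG, 3.06% of windows) were found in the Fosb and Klf2 windows, whereas the AP-1 site (TGANTCA, 6.75%), the cyclic AMP response element (TGACGTCA, 1.55%) and the CArG box (1.47%) were found in none of the 10 member windows. A match is only a description of the letters in these windows.

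Hspa1a (chr17:34969190-34972156) and Hspa1b (chr17:34956436-34959238) are single-exon neighbours whose coding sequences are nearly the same, so that their reads can be shared. Of all 98-base windows of the Hspa1a transcript, 47.5% also occurred in Hspa1b, but none of those in the last 500 bases did. Reads at the 3′ end, where this assay counts, can therefore be told apart, and reads from the shared coding stretch cannot. Fos lies at chr12:85473890-85477273, Fosb at chr7:19302696-19310051, Jun, a gene of 1 exon, at chr4:95049034-95052222, Junb at chr8:84974484-84978718, Atf3 at chr1:191170296-191218039, Klf2 at chr8:72319033-72321656 and Dnajb1 at chr8:83608193-83612653 (GRCm38).

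Junb was by far the most abundant member in both libraries, at 2395 CPM in the control and 3037 CPM in OTM over all cells, and it was the only immediate early gene that was higher in OTM (1.27-fold, 95% interval 1.25 to 1.29). Intervals here and below cover counting error only, and CPM of this 3′ assay counts transcripts whatever their length. The other 5 immediate early genes and Klf2 were each lower in OTM, to between 0.527 and 0.730 of the control level. Among the heat shock genes, Hspa1a and Hspa1b were lower in OTM and Dnajb1 did not differ beyond counting error. Of the 9 members with at least 200 UMIs, 1 (Hspa1a) was at least 2-fold lower in OTM, against 2.57% of all 5339 genes with that many UMIs, and none was at least 2-fold higher, against 2.14% of all genes. Intervals clear of 1 were common at this depth. They lay below 1 for 7 of the 9 members and 34.7% of all genes, and above 1 for 1 member (Junb) and 24.0% of all genes. When barcodes were filtered only on 200 genes and 5% mitochondrial UMIs, Fosb (0.421) and Atf3 (0.402) were past 2-fold as well as Hspa1a, against 2.81% of 6477 genes lower and 1.3% higher.

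Fos, the AP-1 subunit that pairs with the Jun proteins, measured 885 CPM in the control and 645 CPM in OTM, a ratio of 0.730 (0.705 to 0.755). Fosb, its paralog, measured 144 and 79.9 CPM, a ratio of 0.557 (0.507 to 0.612). Jun measured 219 and 158 CPM (ratio 0.721, 0.673 to 0.773), and Atf3 measured 152 and 80.1 CPM (0.527, 0.480 to 0.578). Egr1 measured 243.5 and 137.5 CPM (0.565, 0.526 to 0.607). Klf2 was likewise lower in OTM, at 179 against 262 CPM (0.682, 0.639 to 0.727). Junb thus made up 59.3% of the 6 summed immediate early genes in the control and 73.4% in OTM, and the sum itself was nearly level, at 4038 and 4138 CPM (1.02, 1.01 to 1.04). Without Junb the sum was 1643 CPM in the control and 1101 CPM in OTM (0.670, 0.653 to 0.688).

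Hspa1a measured 48.9 CPM in the control (525 UMIs) and 19.5 CPM in OTM (152 UMIs), a ratio of 0.399 (0.331 to 0.479), and it ranked 53 from the lowest ratio among the 5339 genes. Hspa1b was rarer, at 12.4 and 2.57 CPM (133 and 20 UMIs), a ratio of 0.207 (0.123 to 0.333), and did not reach the 200-UMI minimum. Their co-chaperone Dnajb1 was nearly level, at 69.6 and 74.9 CPM (1.08, 0.963 to 1.20), and its interval held 1. Dnajb1 therefore made up 53.2% of the summed heat shock genes in the control and 77.2% in OTM, while that sum was lower in OTM (97.0 against 131 CPM, 0.740, 0.677 to 0.809).

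In monocyte-macrophage-like cells the same genes were lower, several of them more so. The largest cluster of this class differed between the libraries, being Fn1 and Vcan monocyte-like cells in the control (646 of 1310 cells) and Saa3 monocyte-like cells in OTM (343 of 795). Summed MHC class II markers of the class were at 9999 CPM in the control and 5077 CPM in OTM. C1q macrophage markers were at 314 and 176.5 CPM and erythroid markers at 722.5 and 92.8 CPM. The part of these shifts in the class ratios was not tested. Atf3 measured 196 CPM in the control and 91.6 CPM in OTM (0.467, 0.421 to 0.517). Hspa1a measured 64.5 and 16.7 CPM (0.260, 0.206 to 0.325). Hspa1b, under the 200-UMI minimum, measured 13.75 CPM (90 UMIs) and 2.82 CPM (16 UMIs), a ratio of 0.205 (0.112 to 0.351). Atf3 and Hspa1a were the 2 of 9 members at least 2-fold lower in OTM, against 2.4% of all 4414 genes, and none was 2-fold higher, against 2.13%. Without the 53 control C1q macrophage-like cells, which had no OTM counterpart, Atf3 was at 0.513 and no longer past 2-fold, while Hspa1a remained so at 0.278. Fosb measured 157 and 83.0 CPM (0.528, 0.472 to 0.589), and Klf2 measured 265 and 158 CPM (0.596, 0.549 to 0.646). Jun measured 246 and 158 CPM (0.641, 0.590 to 0.696). Fos was at 865 CPM in the control and 643 CPM in OTM (0.743, 0.713 to 0.775), and Egr1 at 149 and 103 CPM (0.692, 0.623 to 0.767). Junb was again the exception, at 2530 and 3003 CPM (1.19, 1.16 to 1.21), and Dnajb1 was level at 72.4 and 70.6 CPM (0.976, 0.852 to 1.12). The interval lay below 1 for 7 of the 9 members, against 37.4% of all genes, and above 1 for 1, against 19.5%.

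Neutrophil-like cells showed another arrangement. The control class held 151 Ifit and 81 dividing Fcnb neutrophil-like cells, clusters that had no OTM counterpart, and their part in the class ratios was not tested. Summed neutrophil markers of the class were at 357993 CPM in the control and 235339 CPM in OTM, and some ratios depended on whether these abundant transcripts were counted in the totals. Fos (977 CPM in the control, 736 CPM in OTM, 0.754, 0.706 to 0.804) and Egr1 (412 and 264 CPM, 0.641, 0.576 to 0.713) were lower in OTM. Junb was higher, at 2218 and 3549 CPM (1.60, 1.55 to 1.66), as was Dnajb1, at 56.1 and 85.9 CPM (1.53, 1.23 to 1.92). With totals free of 11 abundant neutrophil genes the ratio was 1.33 for Junb (1.285 to 1.38) and 1.27 for Dnajb1 (1.02 to 1.59). Jun, lower in the monocytes, measured 117 and 148 CPM here (1.27, 1.08 to 1.49), but with those totals its ratio was 1.055 and the interval held 1 (0.897 to 1.24). The intervals of the ratio held 1 for Fosb (87.6 and 82.6 CPM), Atf3 (65.4 and 57.1 CPM) and Klf2 (244 and 258 CPM), but with totals free of the abundant neutrophil genes those of Fosb (0.784, 0.637 to 0.960), Atf3 (0.726, 0.567 to 0.9245) and Klf2 (0.882, 0.784 to 0.991) lay below 1. Hspa1a was rare in both libraries, at 12.9 CPM (40 UMIs) and 26.1 CPM (47 UMIs), and 12 of the 47 OTM UMIs came from 1 cell. Its ratio of 2.02 (1.30 to 3.16) was 1.51 without that cell, with an interval that held 1 (0.932 to 2.44). Hspa1b gave 23 UMIs in the control and 2 in OTM. None of the 8 members with at least 200 UMIs was 2-fold lower or higher, against 3.51% and 7.07% of all 1881 genes. The interval lay below 1 for 2 of the 8, against 20.9% of all genes, and above 1 for 3, against 41.3%. The immediate early sum of this class, 3876 CPM in the control and 4836 CPM in OTM (log2 ratio 0.32), turned to -0.23 when barcodes were filtered only on 200 genes and 5% mitochondrial UMIs, which kept 2835 and 2052 barcodes.

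**Figure D1:**
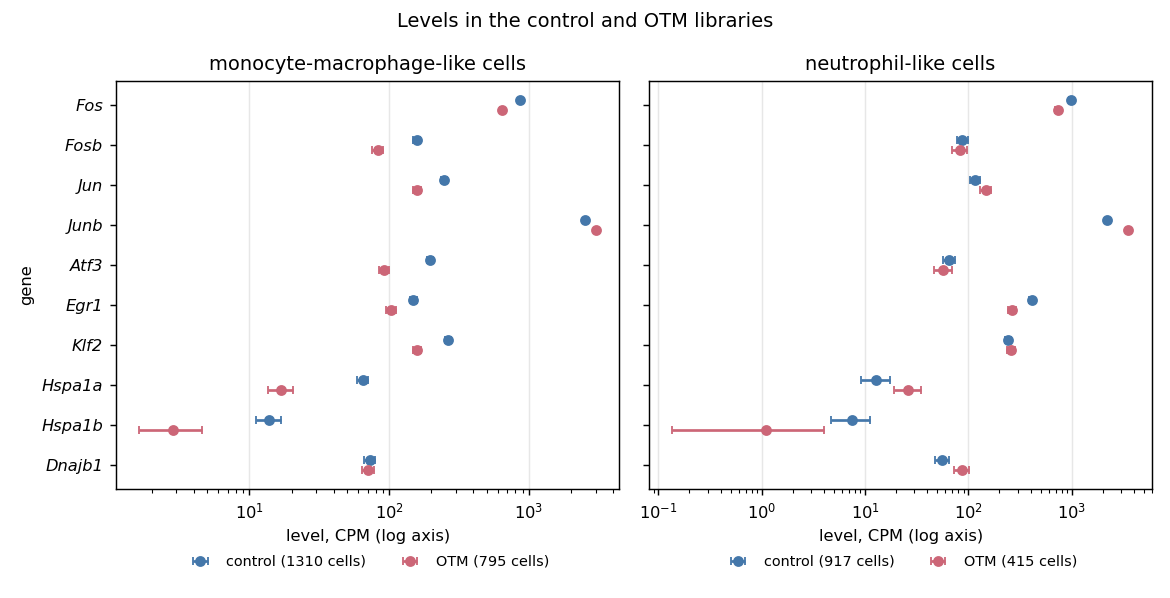
Levels of the 10 genes in CPM (log axis) in monocyte-macrophage-like and neutrophil-like cells of the control (blue) and OTM (red) libraries; bars are 95% counting intervals. Junb lies to the right of every other gene, and the widest gaps between the libraries are those of Hspa1a and Hspa1b.

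**Figure D2:**
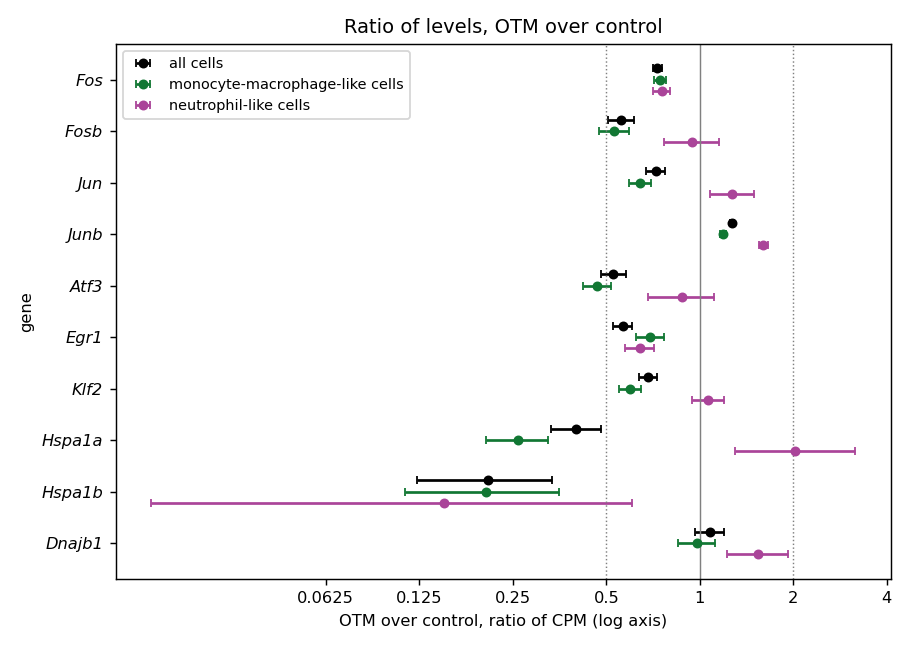
Ratio of CPM, OTM over control (log axis), for each gene over all cells, monocyte-macrophage-like cells and neutrophil-like cells, with 95% counting intervals; the solid line marks 1 and the dotted lines a 2-fold difference. Junb lies right of 1 in each, and Hspa1a in monocyte-macrophage-like cells (0.260) and in neutrophil-like cells (2.02) lie on opposite sides of it.

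The levels also differed between the clusters of 1 library. The control C1q macrophage-like cells, which carry the complement genes of resident macrophages, were the highest of the 12 control clusters for Fos (2342 CPM), Fosb (727), Jun (1031), Atf3 (611), Klf2 (945) and Hspa1a (165). For all of these genes the interval of this cluster was clear of the next one. Ifit neutrophil-like cells, which carry interferon-induced genes, were the highest for Junb (4389 CPM) and were second for Fos (1887 CPM). For Egr1 they (875 CPM) and the C1q macrophage-like cells (825 CPM) overlapped. B cell-like cells were second for Fosb (426 CPM) and Jun (728 CPM), and their Dnajb1 level (177 CPM) overlapped that of the C1q macrophage-like cells (154 CPM).

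Granulocyte progenitor-like cells were the lowest of the control clusters for Fos (186 CPM), Junb (319 CPM), Klf2 (49.6 CPM) and Egr1 (37.2 CPM), and the last overlapped its neighbour. Atf3 gave only 2 UMIs in them (6.20 CPM). They were not low for every member, since their Jun level (236 CPM) overlapped those of the dividing (284 CPM) and nonclassical monocyte-like cells. Dividing Fcnb neutrophil-like cells, the next stage of granulocytes, were low for Fos (352 CPM) and Junb (527 CPM) and held no Hspa1b UMI, which allows up to 6.11 CPM (3 UMIs of the cluster total). Within the granulocyte lineage of the control library, Junb was thus 527 CPM in dividing Fcnb, 1494 in Ltf and Camp, 3118 in Retnlg and Stfa2l1 and 4389 in Ifit neutrophil-like cells, each interval clear of the next.

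Among the 7 OTM clusters, the Ly6c2 monocyte-like (914 CPM), Retnlg and Stfa2l1 neutrophil-like (902 CPM) and MHC class II-high monocyte-like cells (880 CPM) shared the highest Fos levels, with overlapping intervals. Saa3 monocyte-like cells, the largest OTM cluster, were low in most members, with 389 CPM of Fos, 97.4 of Jun, 55.7 of Atf3, 61.5 of Egr1 and 7.85 of Hspa1a. The largest control cluster, Fn1 and Vcan monocyte-like cells, held 713 CPM of Fos, 181 of Jun, 169 of Atf3, 131 of Egr1 and 74.9 of Hspa1a. In 104 of its cells, described below, these levels were higher. The other 542 held 457 CPM of Fos, 77.2 of Jun, 85.0 of Atf3, 92.4 of Egr1 and 19.6 of Hspa1a. The Junb levels of the Saa3 and the whole Fn1 and Vcan clusters were 2817 CPM (2750.5 to 2884.6) and 2601 CPM (2540.9 to 2662.4). As these clusters have different names in the 2 libraries, no ratio was formed between them.

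**Figure D3:**
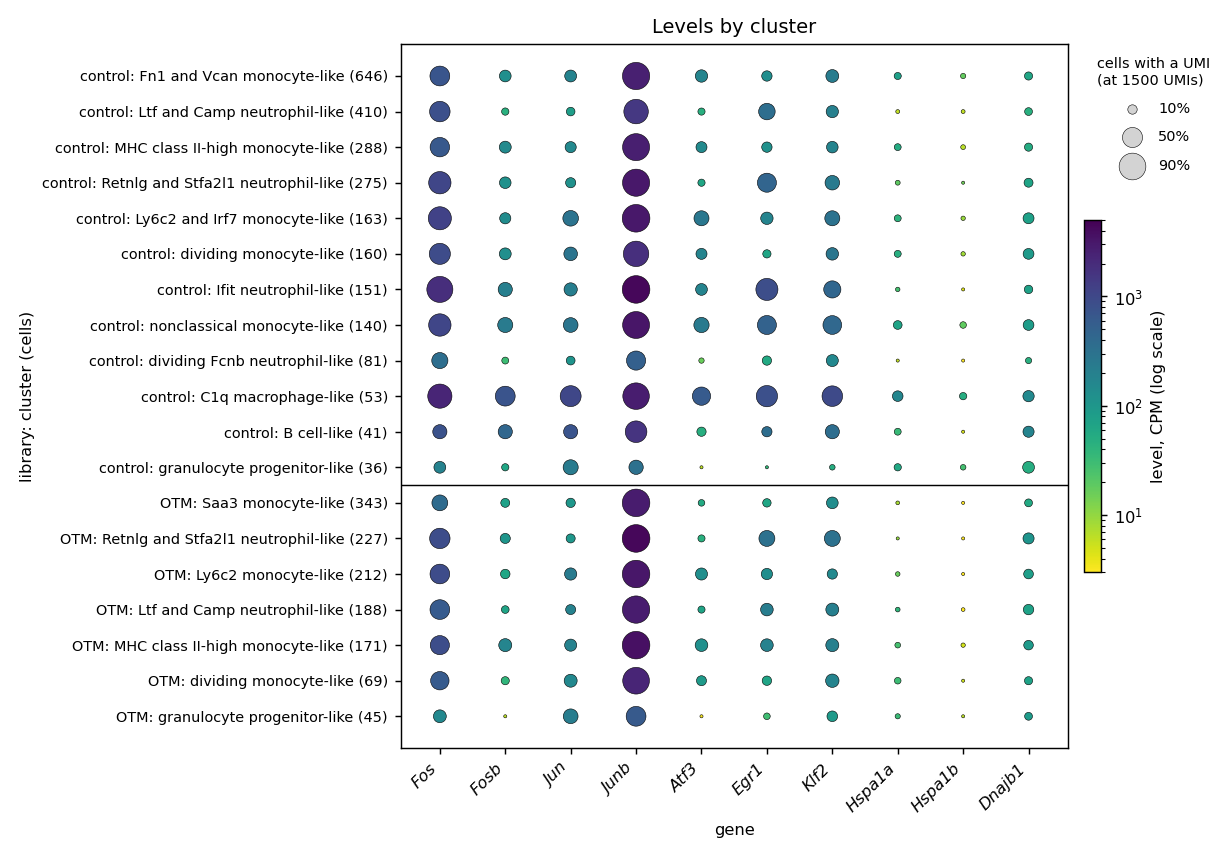
Level in CPM (colour, log scale) and share of cells with at least 1 UMI after thinning each cell to 1500 UMIs (dot area) for each gene in the 12 control and 7 OTM clusters, with the number of cells in brackets. The Junb column is dark in nearly every cluster, and the C1q macrophage-like row is dark across the immediate early genes.

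Free RNA in the droplets could add UMIs of these genes to any cell, and no cell type present is known to lack them. The control cluster with the lowest Fos level, granulocyte progenitor-like cells (186 CPM), served as a reference for Fos only. It was picked for that level and can hold Fos of its own, so its share does not measure free RNA. No background share is given here for the other genes. After thinning to 1500 UMIs per cell, Fos was detected in 54.6% of control and 42.5% of OTM cells (75.7% and 71.3% without thinning). It was detected in 16.7% of the 36 control granulocyte progenitor-like cells (median 8471.5 UMIs). The corresponding thinned shares were 86.3% and 93.6% for Junb, 25.3% and 16.6% for Egr1, 17.5% and 13.6% for Jun, and 3.97% and 1.35% for Hspa1a. The genes did not keep 1 ratio across clusters of the control library. Hspa1a gave 0.743 UMIs per 100 Fos UMIs (0.320 to 1.47) in Ltf and Camp neutrophil-like cells, 10.5 (9.06 to 12.2) in Fn1 and Vcan monocyte-like cells and 31.7 (17.9 to 53.8) in granulocyte progenitor-like cells. Egr1 ranged from 7.01 per 100 Fos UMIs (5.57 to 8.71) in dividing monocyte-like cells to 47.2 (40.7 to 54.7) in nonclassical monocyte-like cells. The nonclassical cluster also held neutrophil markers at 153175 CPM, against 11713 CPM in the dividing monocyte-like cells. In Ltf and Camp neutrophil-like cells Egr1 gave 42.6 per 100 Fos UMIs (38.1 to 47.6). The part of the neutrophil markers in this range was not tested.

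The 5 clusters that bore the same name in both libraries were compared next. Of all genes with at least 20 UMIs, the share with an interval below 1 was 8.46% in Ltf and Camp and 20.3% in Retnlg and Stfa2l1 neutrophil-like cells, 10.5% in MHC class II-high and 10.3% in dividing monocyte-like cells and 20.5% in granulocyte progenitor-like cells. The share with one above 1 was 33.7%, 11.9%, 13.1%, 8.18% and 11.5% in the same order. Junb was higher in OTM in 5 of 5, from 1.25-fold (1.18 to 1.33) in dividing monocyte-like cells to 2.00-fold (1.56 to 2.56) in granulocyte progenitor-like cells. Dnajb1 was higher in 3 and had an interval that held 1 in the other 2. Fos was lower in OTM in 3 clusters and higher in 1, Egr1 was lower in 2 and higher in 1, Jun was lower in 1 and higher in 2, Hspa1a was lower in 1 and higher in 1, Fosb was lower in 2 and higher in 1, and Klf2 was lower in 1 and higher in 1. The count for Dnajb1 and the 1 higher Fosb ratio include the Ltf and Camp cells, where they depended on the totals. There the ratio of Dnajb1 went from 1.47 (1.02 to 2.10) to 1.08 (0.756 to 1.55) with totals free of the abundant neutrophil genes, that of Fosb from 1.475 (1.02 to 2.14) to 1.09 (0.754 to 1.58), and that of Klf2 from 1.02 (0.846 to 1.225) to 0.752 (0.624 to 0.905). Atf3 was lower in dividing monocyte-like cells and Hspa1b in Retnlg and Stfa2l1 neutrophil-like cells, and for each the intervals held 1 in the other 4. Like-named clusters were not alike in all markers. In the granulocyte progenitor-like cells, summed neutrophil markers were at 75147 CPM in the control and 246111 CPM in OTM, and progenitor markers at 35491 and 20098 CPM. The part of such shifts in the ratios was not tested.

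The monocyte clusters went different ways. In MHC class II-high monocyte-like cells, which carry antigen presentation genes, Fos was higher in OTM, at 880 against 644 CPM (1.37, 1.24 to 1.50), and so was Egr1, at 189 against 122 CPM (1.54, 1.25 to 1.91). Dnajb1 was also higher in OTM (53.7 and 90.4 CPM, 1.68, 1.22 to 2.32), whereas Hspa1a was lower (53.7 and 26.5 CPM, 0.494, 0.305 to 0.778). In dividing monocyte-like cells, Fos was instead lower in OTM (906 and 614 CPM, 0.678, 0.608 to 0.754). So were Fosb (128 and 39.0 CPM, 0.304, 0.199 to 0.449), Jun (284 and 155 CPM, 0.544, 0.439 to 0.670), Atf3 (174 and 91.1 CPM, 0.524, 0.396 to 0.687) and Klf2 (273 and 176 CPM, 0.644, 0.525 to 0.786). In these cells erythroid markers were at 2106 CPM in the control and 67.6 CPM in OTM, neutrophil markers at 11713 and 18665 CPM and B cell markers at 4.38 and 61.1 CPM, and their part in the result was not tested. In the MHC class II-high cells, C1q macrophage markers were at 167 CPM in the control and 739 CPM in OTM, nonclassical monocyte markers at 142 and 252 CPM, and MHC class II markers at 41643 and 25986 CPM, and their part in the result was not tested. The lower values of the whole class were therefore not shared by each of its clusters.

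In Ltf and Camp neutrophil-like cells, which carry specific granule genes, Fos (0.732) and Egr1 (0.621) were lower in OTM and Jun was higher, at 187 against 80.6 CPM (2.32, 1.82 to 2.98). Hspa1a gave 39 UMIs in OTM and 8 in the control (6.32, 2.91 to 15.7). Leaving out the 1 OTM cell with most Hspa1a gave 4.40, and leaving out called doublets gave 4.85. The OTM cluster held 7 of the 12 doublets called in its library, and monocyte-macrophage markers made up 0.453% of its UMIs against 0.182% in the control cluster. The part of these cells in the result was not tested beyond the ratio without doublets, which was 2.37 for Jun. Summed neutrophil markers were at 427863 CPM in the control cluster and 234005 CPM in the OTM cluster, and with totals free of the abundant neutrophil genes the ratio was 1.71 for Jun (1.34 to 2.20) and 4.67 for Hspa1a (2.15 to 11.6). In Retnlg and Stfa2l1 neutrophil-like cells, more mature by their genes, Klf2 (1.33, 1.10 to 1.60) and Dnajb1 (1.62, 1.14 to 2.31) were higher in OTM, and Fos (0.844) and Egr1 (0.708) were lower. Hspa1b gave 13 control UMIs and 0 in OTM, which allows up to 3.76 CPM by the same limit of 3 UMIs. Erythroid markers of the Retnlg and Stfa2l1 cells were at 913 CPM in the control and 119 CPM in OTM. Their cell division markers were at 897 and 233 CPM and their granulocyte progenitor markers at 538 and 225 CPM. The part of these markers in the ratios was not tested. In granulocyte progenitor-like cells Fosb gave 20 control and 2 OTM UMIs (0.105, 0.0119 to 0.434).

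**Figure D4:**
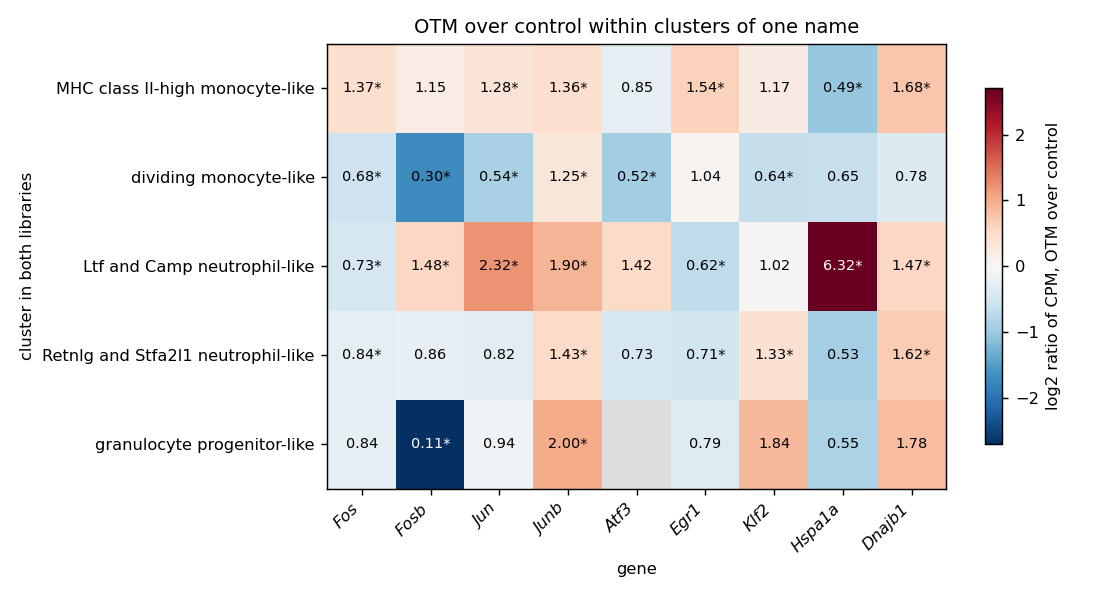
OTM over control ratio of CPM (number in each cell) within the 5 clusters named alike in both libraries, coloured by its log2 value; an asterisk marks a 95% counting interval that excludes 1, grey a cell with fewer than 20 UMIs, and Hspa1b is left out for its low counts. The Junb column is above 1 throughout, and the dividing monocyte-like and MHC class II-high monocyte-like rows differ in direction for Fos and Jun.

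The members were next compared cell by cell, after thinning each cell to 1500 UMIs. Cells of 1 library share depth and handling, and sparse counts lower a correlation, so these values are descriptions. Each class also pooled clusters of different levels, among them the 53 control C1q macrophage-like cells, which had no OTM counterpart. The part of such cluster differences in r was not tested. In control monocyte-macrophage-like cells the 15 pairs of immediate early genes had a median Pearson r of 0.25, with 10 pairs above 0.2 and Fos with Jun the highest (0.43). In these cells Junb had r between 0.02 and 0.11 against the other immediate early genes. It did not stand apart in the same way elsewhere, since with Egr1 and Fos it had r of 0.20 and 0.18 in OTM monocyte-macrophage-like cells and of 0.28 and 0.21 in control neutrophil-like cells. Klf2 went with Fos and Jun (both 0.38). Hspa1a went with Hspa1b (0.38) and with Jun (0.31), but its r with Dnajb1 was 0.04. The pair of Hspa1a and Hspa1b was found together in 13 of these cells, and in 0 control neutrophil-like and 0 OTM monocyte-macrophage-like cells (r of -0.006 in both), where both genes were rare. In OTM monocyte-macrophage-like cells the median of the immediate early pairs was 0.18, with Fos and Jun at 0.37, Jun and Hspa1a at 0.20, and Jun and Klf2 at 0.16. Over all cells the immediate early sum and the heat shock sum had r of 0.16 in the control and 0.08 in OTM.

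**Figure D5:**
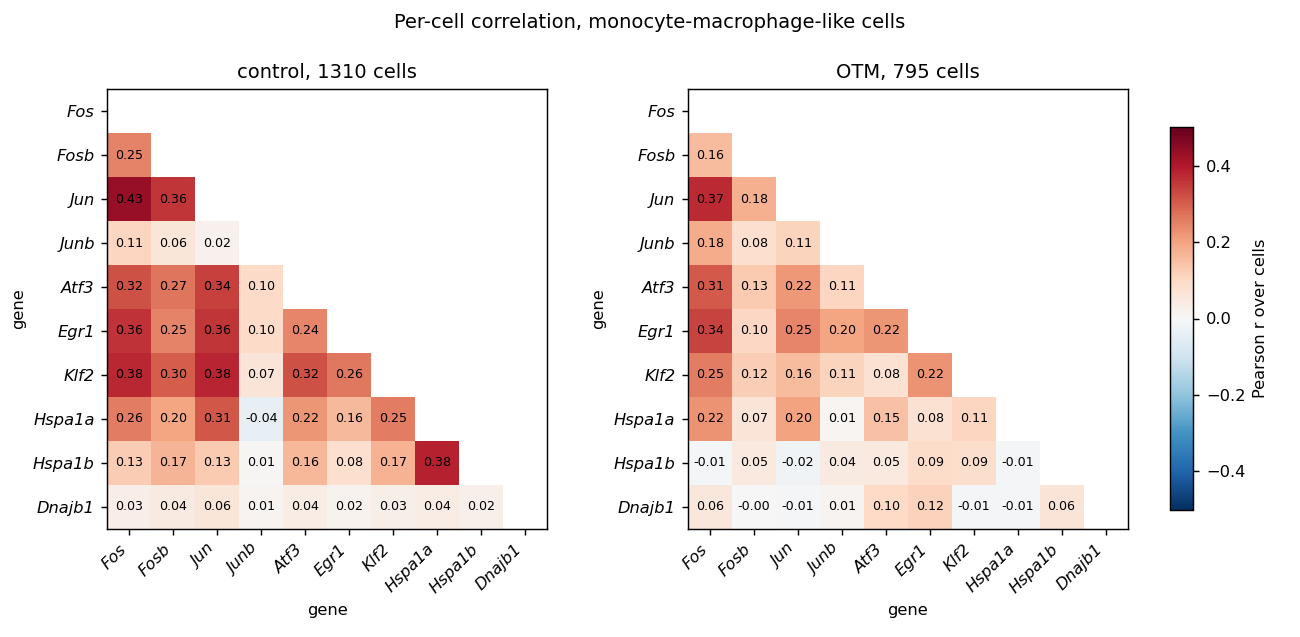
Pearson r over single cells for each pair of members in monocyte-macrophage-like cells of the control (left) and OTM (right) library, from counts thinned to 1500 UMIs per cell. Fos, Fosb, Jun, Atf3, Egr1 and Klf2 form the darkest block in the control panel, and no Junb or Dnajb1 value exceeds 0.11 there.

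The 71 control monocyte-macrophage-like cells with an Hspa1a UMI carried 372 Fos UMIs per 100 cells, against 119 in the 1239 without one (3.13-fold, 2.74 to 3.57). Their Jun (166 against 30.2, 5.51-fold, 4.44 to 6.79) and Klf2 (148 against 33.9, 4.36-fold, 3.49 to 5.42) were higher too. Junb was not, at 361 and 401 UMIs per 100 cells (0.899, 0.790 to 1.02), and the Dnajb1 interval also held 1 (1.88, 0.970 to 3.33). In OTM only 13 such cells were found, with Fos 6.70-fold (5.27 to 8.43) and Jun 7.71-fold (4.58 to 12.3) that of the other 782. Clusters of the class were pooled here as well, and their part in these ratios was not tested. At least 5 of the 10 members were detected in 10.7% of control cells (261 of 2444, 9.48% to 11.97%) and in 4.70% of OTM cells (59 of 1255, 3.60% to 6.02%). None was detected in 5.07% and 2.15%.

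When control cells were clustered on all genes, 132 cells (5.40%) formed a cluster led by Hspa1a, Atf3, Rhob, Jun, Klf2, Rnd3, Fosb, Klf4, Tifab and Map3k8, 5 of which are members. No OTM cluster had a member among its 10 leading genes. That library was clustered with 8 principal components and 1255 cells, against 12 and 2444 in the control. Whether OTM held a smaller group of such cells was not tested. Of the 132 control cells, 104 lay in the Fn1 and Vcan monocyte-like cluster (16.1% of it) and 16 in the Ly6c2 and Irf7 monocyte-like cluster. As the cells were grouped on these genes, the following values only describe them. Compared with the other 542 Fn1 and Vcan cells, the 104 had 371 against 19.6 CPM of Hspa1a, 739 against 77.2 CPM of Jun, 872 against 107 CPM of Klf2 and 2078 against 457 CPM of Fos. Rhob, a small GTPase that is itself an immediate early gene, was at 310.1 against 20.5 CPM. Junb was slightly higher in the 104 cells (2926 against 2540.3 CPM, 1.15-fold, 1.08 to 1.225). Dnajb1 (65.3 against 64.1 CPM), the constitutive Hsp70 gene Hspa8 (1847 against 1849 CPM) and Hsp90aa1 (371 against 343 CPM) were close, with ratio intervals that held 1. The monocyte gene Csf1r (189 against 189.6 CPM) was close as well. Fn1 (1000.4 against 881 CPM, 1.135-fold, 1.02 to 1.26), Ccr2 (660 against 474 CPM) and S100a8 (12021 against 7412 CPM) were higher in the 104 cells. The median depth was 3819.5 UMIs for the 132 cells and 3960 for the other Fn1 and Vcan cells.

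Which genes were most like the members was ranked by the lower of the 2 libraries' r over single cells, first with all cell types pooled. For the immediate early sum, 3103 genes were compared and the most alike were Dusp1, a MAP kinase phosphatase (r of 0.49 in the control and 0.52 in OTM), Zfp36, an mRNA decay factor (0.44 and 0.49), and Btg2 (0.44 and 0.45), followed by Ccrl2, Cebpb, Cxcl2, Nfkbia, Ier5, Jund and Ccl6. The heat shock sum was most like Jun (0.30 and 0.22), Fos (0.19 and 0.16), Fosb and Atf3, followed by Tuba1b, Jund, Zfp36l2, Dynll1, Nr4a1 and Rnd3. Klf2 was most like Fos (0.33 and 0.26) and Egr1 (0.24 and 0.29), followed by Zfp36, Dusp1, Ier2, Tsc22d3, Jund, Btg2, Ier5 and Ddit3. Of the single members, Junb was most like Nfkbia (0.47 and 0.55) and Egr1 most like Hcar2 (0.37 and 0.39). Fos was most like Egr1, Jun and Atf3 most like each other, and Hspa1a most like Jun. Fosb was most like Jund, and Hspa1b and Dnajb1 were most like Fosb. Within monocyte-macrophage-like cells the order was partly another. There the immediate early sum was led by Zfp36 (0.38 and 0.47), Dusp1 (0.37 and 0.43) and Ier2 (0.33 and 0.34), and Ccrl2, Cxcl2, Nfkbia and Ccl6 were not among its 10 leading genes. Junb was most like Zfp36 (0.29 and 0.34), Egr1 most like Fos (0.38 and 0.41), Fos most like Jun (0.45 and 0.39), Hspa1a most like Fos (0.27 and 0.21) and Klf2 most like Egr1 (0.32 and 0.32). The heat shock sum was again led by Jun (0.33 and 0.22) and Fos (0.27 and 0.21).

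The lists in this paragraph were written by hand with earlier results of these data known, so their counts are descriptions. A list of other genes known to respond to tissue dissociation or to act as immediate early genes was set beside the members, again over all cells. Of its 33 genes compared, 15 were among the 50 most like the immediate early sum, and the list made up 1.06% of the genes compared. Of the same list 11 were among the 50 most like Klf2 and 6 among the 50 most like the heat shock sum. Cytosolic and mitochondrial chaperones, 0.516% of the genes compared, gave 0 of 16, 0 of 16 and 2 of 16 (Hsp90aa1 and Hspa8). Inflammatory genes of the NF-kB type, 0.580% of the genes compared, gave 4 of 18 for the immediate early sum (Cxcl2, Tnfaip3, Il1b and Ccl3), 2 for Klf2 and 2 for the heat shock sum. Endoplasmic reticulum stress genes (0.451% of the genes compared) gave 0, 1 (Ddit3) and 0 of 14. The genes known to go with Klf2 (0.161%) gave 0 of 5 for each. Lists this small can give 0 without being unlike other genes. Within monocyte-macrophage-like cells the dissociation list gave 18 of 33 for the immediate early sum, 10 for Klf2 and 9 for the heat shock sum. There the NF-kB list gave 3 for the immediate early sum (Ccl3, Tnf and Ccl4), 1 for Klf2 (Tnf) and 2 for the heat shock sum (Tnf and Ccl3), and its median r with the immediate early sum was -0.0069 in the control and 0.056 in OTM, against 0.090 and 0.086 with all types pooled. The endoplasmic reticulum list gave 1 (Ddit3), 1 (Ddit3) and 0.

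Between the libraries, the members and each list are given beside all genes. The 9 members had a median log2 ratio of -0.55 over all cells, against -0.07 over all 5339 genes. In monocyte-macrophage-like cells their median was -0.64, against -0.10 over all 4414 genes. In neutrophil-like cells the median of 8 members was 0.0014, against 0.15 over all 1881 genes. Over all cells the dissociation list had a median of 0.18 over 35 genes, with 4 at least 2-fold higher in OTM and 2 lower, against 2.14% and 2.57% of all genes. Zfp36l1, an mRNA decay factor, was at 85.4 CPM in the control and 296 CPM in OTM (3.47, 3.21 to 3.75), and Ier3, Socs3 and Csrnp1 were the other 3. Rhob was at 70.4 and 20.8 CPM (0.296, 0.248 to 0.351), and Mafk was the other lower one. The most abundant genes of the list were Cebpb (4139 and 3620.2 CPM, 0.875) and Nfkbia (2426 and 4210.4 CPM, 1.74). In neutrophil-like cells 9 of the 32 genes of this list were 2-fold higher in OTM and 1 lower, against 7.07% and 3.51% of all genes. In monocyte-macrophage-like cells 2 of 35 were higher and 4 lower, against 2.13% and 2.4% of all genes.

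Chaperones other than the members had a median of -0.18 over 18 genes, with 0 past 2-fold higher and 1 lower, against the same 2.14% and 2.57% of all genes. This was Hsph1, an Hsp110 chaperone (24.3 and 10.8 CPM, 0.443, 0.343 to 0.569), while Hspa8 was the highest (1649 and 3201 CPM, 1.94) and Ubb was at 1.28. Genes of the endoplasmic reticulum stress response had a median of 0.26 over 14 genes, from Ddit3 (75.8 and 35.3 CPM, 0.466) to the chaperone Hspa5 (1.56), with Hsp90b1 at 0.871. Inflammatory genes of the NF-kB type had a median of 0.89 over 18 genes, of which 8 were at least 2-fold higher in OTM and none lower, against 2.14% and 2.57% of all genes. Among them were Il1a (39.9 and 309 CPM, 7.75, 6.99 to 8.61), Il1b (1673 and 6567 CPM, 3.93) and Cxcl2 (11037 and 23275 CPM, 2.11), and Cd83 was the lowest (0.881). Genes known to go with Klf2 had a median of 0.06 over 6 genes, with Thbd the lowest (0.431) and Klf13 at 1.18.

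Both libraries went through the same digestion, so that transcripts present in the tissue and transcripts made during digestion cannot be told apart in either. The median mitochondrial share was 1.00% in the control cells and 0.923% in the OTM cells. Whether handling time differed between the libraries was not tested.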

How the data were processed

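The authors processed the 10x Genomics 3′ libraries with Cell Ranger 3.0.0 on mm10 and used Seurat 3.0.0, per the labels, and deposited raw UMI counts per gene and cell, 1 table per library (2863 control and 2058 OTM barcodes, fewer than the cells described in the study's text). No sample column was left unused (0). Barcodes were kept where 1000 UMIs corresponded to 200 or more genes and mitochondrial transcripts stayed within 5%, with 1777 to 18798 UMIs per control cell and 2354 to 18425 per OTM cell. Scrublet in Scanpy 1.11.5 called 5 control and 12 OTM doublets, which were kept. Each library was clustered in Seurat 5.3.0 (R 4.3.3) with 12 (control) or 8 (OTM) principal components at resolution 0.6, leaving out the members and the 5 response lists. Clusters were named from marker lists, with thresholds set with the data at hand, so the names were rebuilt here and not the study's.

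Counts were summed per class or cluster and scaled to CPM. Intervals (95%) were exact Poisson for levels, conditional binomial for ratios and Clopper-Pearson for shares. With 1 library per group no test was run, and a 2-fold difference with at least 200 UMIs was the call. Scaling by TMM came from edgeR 4.0.16. The ratios and correlations were checked on simulated data. All members were named, and of each list the highest and lowest ratio and the 2 most abundant genes, except genes that are not reported here. Genes named beyond this rule were chosen after their values were seen. Likeness was the Pearson r of log1p counts scaled to 10000. Members and lists were chosen with earlier results of these data known. Cebpd and Trac were not analysed here.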

Additional observations from a re-analysis of the deposited data

Results flagged for a closer look

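For 3 results the monocyte-macrophage-like and neutrophil-like cells lay on opposite sides of 1, OTM over control, with both counting intervals clear of 1. Klf2, Dnajb1 and the immediate early sum also lay on opposite sides, but their interval held 1 in 1 of the classes. The differences between the classes were not tested. For Jun the ratios were 0.641 and 1.27, so that the neutrophil-like ratio was 1.98 times the other. For Hspa1a they were 0.260 and 2.02 (7.79 times), and for the heat shock sum 0.599 and 1.48 (2.47 times). With totals free of the abundant neutrophil genes, of which the OTM class held less, the neutrophil-like ratio of Jun was 1.055 (0.897 to 1.24), that of Hspa1a 1.68 (1.08 to 2.63) and that of the heat shock sum 1.23 (1.02 to 1.49). Jun also differed between clusters of each class, at 2.32 in Ltf and Camp and 0.816 (0.601 to 1.11) in Retnlg and Stfa2l1 neutrophil-like cells, and at 1.28 in MHC class II-high and 0.544 in dividing monocyte-like cells. Of the 47 OTM Hspa1a UMIs in neutrophil-like cells 12 came from 1 cell, and without it the ratio was 1.51 (0.932 to 2.44).

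The barcodes removed by the cell filter, 419 in the control and 803 in OTM, carried the members as well. They entered no comparison among the kept cells. Most of them did enter the results with the alternative filter, which kept 2835 control and 2052 OTM barcodes. All of them entered the marker sums over all deposited barcodes. In the removed barcodes alone, Junb was at 867 CPM in the control and 1425 CPM in OTM, a ratio of 1.64 (1.58 to 1.71). The corresponding ratio was 1.20 for Dnajb1 (1.01 to 1.42) and 1.20 for the immediate early sum (1.16 to 1.23). Without Junb that sum was instead at 0.716 (0.685 to 0.749), and Fos (0.643), Fosb (0.494), Atf3 (0.703), Egr1 (0.743), Klf2 (0.761) and Hspa1b (0.289) were lower in OTM, each with an interval below 1. The intervals of Jun (1.06) and Hspa1a (1.05) held 1. Erythroid markers were at 39796 CPM in the removed control barcodes and 8822 CPM in the removed OTM barcodes, granulocyte progenitor markers at 3997 and 2443 CPM, and their part in these ratios was not tested.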

How the results depend on the processing

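No paired analysis was possible because each group was 1 library. Values are log2 ratios, OTM over control. The immediate early sum over all cells (0.04) was -0.19 with barcodes filtered on 200 genes and 5% mitochondrial UMIs, 0.17 with TMM, -0.032 with totals free of abundant neutrophil genes and -0.58 without Junb. In monocyte-macrophage-like cells (-0.02) it was -0.16 with that filter, 0.14 with TMM, -0.064 with totals free of hemoglobin, ribosomal protein and mitochondrial genes, -0.58 without Junb, 0.041 without the C1q cluster and -0.060 with the nonclassical cluster. In neutrophil-like cells (0.32) it was -0.23, 0.22 with TMM, 0.053 with totals free of neutrophil genes, 0.41 at resolution 1.0 and -0.36 without Junb. The direction of the sum thus depended on these settings, and the cause was not tested beyond the arithmetic of leaving out Junb. The heat shock sum left the counting interval of its reported value with TMM, from -0.43 to -0.30 over all cells and from -0.74 to -0.58 in monocyte-macrophage-like cells. In neutrophil-like cells (0.57) it was 0.31 with the filter on 200 genes and 0.30 with totals free of neutrophil genes, inside its interval of 0.29 to 0.84. TMM shifted all genes by 0.13 over all cells, 0.16 in monocyte-macrophage-like and -0.10 in neutrophil-like cells. The control correlation of the sums (0.16) was 0.090 in neutrophil-like cells alone and 0.22 without Junb. Over all cells, none of the 10 members crossed 1 in 60 member results under these alternatives (Hspa1a 0.357 to 0.450, Junb 1.09 to 1.39, Dnajb1 1.03 to 1.25). The settings without Junb, the C1q cluster, the nonclassical cluster or the 1 cell rich in Hspa1a, the ratios of single members with totals free of neutrophil genes, the marker sums over all barcodes and the shares of genes by the filter on 200 genes were chosen after seeing the data. Depth limits Hspa1b most, with 20 OTM UMIs, and 1 library per group leaves the spread between animals unknown.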
